A study of Rattus norvegicus with 11 samples.

Results

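AMP-activated protein kinase (AMPK) subunits and the kinases that switch AMPK on were followed as mRNA in rat renal cortex. The 10 genes were chosen by function, not by level: the catalytic subunits Prkaa1 and Prkaa2, the scaffold subunits Prkab1 and Prkab2, the regulatory subunits Prkag1, Prkag2 and Prkag3, and the upstream kinases Stk11, Camkk1 and Camkk2. They were taken from the 15168 named genes of the array by RefSeq accession and were represented by 12 of its 30367 features. Of the 10 genes, 8 had 1 feature and 2 had 2 features. All 10 were well above background on all 11 arrays with their brightest feature.

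The study measured mRNA of Sprague Dawley (SD) rats on single-colour 44K oligonucleotide arrays, 1 array per sample. Diabetes of type 1 was induced with streptozotocin (STZ), which destroys insulin-producing beta cells, and 4 weeks later rats had Roux-en-Y gastric bypass (RYGB) or a sham operation, with cortex taken another 4 weeks on. The groups were diabetic rats with bypass (DM+RYGB, 2 arrays), diabetic rats with sham surgery (DM+Sham, 3 arrays), non-diabetic rats with bypass (Control+RYGB, 3 arrays) and non-diabetic rats with sham surgery (Control+Sham, 3 arrays). The labels do not say that replicates are separate animals, so p-values may measure technical spread only. Arrays 2 and 3 of DM+Sham differed less than repeated spots on an array do, so their mean was taken as 1 sample, and the same was done for Control+RYGB. The tests therefore rest on 2 samples of DM+RYGB, of DM+Sham and of Control+RYGB, and 3 of Control+Sham. Ages and sexes are not in the labels used here.

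AMPK is a heterotrimer of one alpha, one beta and one gamma subunit that senses a fall in cellular energy. The gamma subunit binds AMP, ADP or ATP, the beta subunit holds the complex together and can bind glycogen, and the alpha subunit carries the kinase domain. Full activity needs phosphorylation of the alpha subunit's activation loop by LKB1, the product of Stk11, or by CaMKK2, the calcium-dependent kinase encoded by Camkk2. In the kidney AMPK is known for its part in energy supply of the tubules, in salt transport and in fatty acid oxidation. The arrays measured mRNA, and neither protein nor phosphorylation was measured.

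The 250 bases before the annotated start are shown for 4 genes that passed the test in at least one comparison, because Stk11 and Camkk1 were both higher in DM+Sham than in Control+Sham, and Prkag1 and Prkag3 were both higher in DM+RYGB than in DM+Sham. The sequences are RefSeq's, build GRCr8, 5′ to 3′ on the gene's strand: Stk11 at chr7:10241966-10242215 (minus strand), Camkk1 at chr10:58135685-58135934 (plus strand), Prkag1 at chr7:131859485-131859734 (minus strand) and Prkag3 at chr9:83753630-83753879 (minus strand). Capitals mark matches, on either strand, to the GC box GGGCGG, the CCAAT box CCAAT, the E-box CACGTG and the cyclic AMP response element TGACGTCA.
Stk11: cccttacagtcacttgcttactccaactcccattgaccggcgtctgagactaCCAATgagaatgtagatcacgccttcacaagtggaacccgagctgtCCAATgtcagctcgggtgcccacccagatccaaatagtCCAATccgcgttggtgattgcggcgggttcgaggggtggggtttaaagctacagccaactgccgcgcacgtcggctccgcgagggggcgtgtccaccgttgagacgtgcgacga
Camkk1: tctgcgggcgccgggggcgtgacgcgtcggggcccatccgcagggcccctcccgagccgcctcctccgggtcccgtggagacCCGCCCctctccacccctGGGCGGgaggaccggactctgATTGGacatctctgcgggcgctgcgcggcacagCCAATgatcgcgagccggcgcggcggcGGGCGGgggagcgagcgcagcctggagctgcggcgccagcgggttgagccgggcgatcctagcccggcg
Prkag1: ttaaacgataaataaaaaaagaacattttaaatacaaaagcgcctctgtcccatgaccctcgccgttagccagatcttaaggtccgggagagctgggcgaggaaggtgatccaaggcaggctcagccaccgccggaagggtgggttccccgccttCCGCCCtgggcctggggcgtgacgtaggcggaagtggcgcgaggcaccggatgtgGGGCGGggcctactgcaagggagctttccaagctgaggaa
Prkag3: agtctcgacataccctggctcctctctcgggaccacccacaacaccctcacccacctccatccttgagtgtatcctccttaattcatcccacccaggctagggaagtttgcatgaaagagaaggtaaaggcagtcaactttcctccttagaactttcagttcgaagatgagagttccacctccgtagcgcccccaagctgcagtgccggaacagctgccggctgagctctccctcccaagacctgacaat
The Stk11 window held 3 CCAAT matches and no GC box. The Camkk1 window held 3 GC boxes and 2 CCAAT matches. The Prkag1 window held 2 GC boxes, and the Prkag3 window held none of the 4 motifs. Among all 33469 promoter windows of this length, 30.5% held a GC box, 34% a CCAAT box, 5.59% an E-box and 1.59% a cyclic AMP response element. The GC content was 58.4% for Stk11, 77.6% for Camkk1, 58.8% for Prkag1 and 54.4% for Prkag3, against a median of 51.2% over all windows. No pair of these 4 windows shared the same set of motifs. These matches are letters in a window, and binding was not measured.

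Each value is a feature's log2 processed signal less that array's 75th percentile, so 0 is the level of a feature at the 75th percentile. Levels of different genes cannot be ranked on this scale. Between 77.7% and 93.5% of features lay well above background, the 75th percentile signal ranged from 1540.6 to 4454, and no spot was saturated. A gene was called changed where limma's Benjamini-Hochberg adjusted p, over all 28489 tested features, was under 0.05 in the same direction with scaling by the 75th percentile, by the median and by quantiles. This was asked because the scaling moves all genes: the median change of named genes for DM+RYGB against DM+Sham was 0.38 with the 75th percentile, -0.23 with the median and -0.14 with quantiles. The same medians were 0.03, -0.04 and 0.03 for DM+Sham against Control+Sham and 0.19, -0.13 and -0.10 for Control+RYGB against Control+Sham. DM+RYGB 2 stood apart: the summed linear level of 20 heart and skeletal muscle markers was 495 there and 7.58 in DM+RYGB 1, against 1.81 to 2.47 on the other 9 arrays. Changes of DM+RYGB are therefore also given without DM+RYGB 2, in fits where the lone DM+RYGB array is assumed to vary like the other groups. That assumption is doubtful: the spread between the 2 DM+RYGB arrays was 0.427, against 0.0296 to 0.267 between arrays of the other groups. Adjusted p-values and calls of DM+RYGB from those fits may therefore be too favourable, and only the sizes of change can be read from them. Other markers also moved with the groups: the summed level of 5 podocyte markers was 23.4 to 32.9 in DM+RYGB, 11.3 to 11.9 in DM+Sham, 11.8 to 12 in Control+RYGB and 10.1 to 11 in Control+Sham, and that of 10 proximal tubule markers was 94.3 to 159, 173 to 208, 290 to 371 and 144 to 203 in the same groups. Whether these shifts of cell type markers play a part in the members' values was not tested. In this bulk tissue, fewer cells of a type and less mRNA per cell cannot be told apart.

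**Figure D1:**
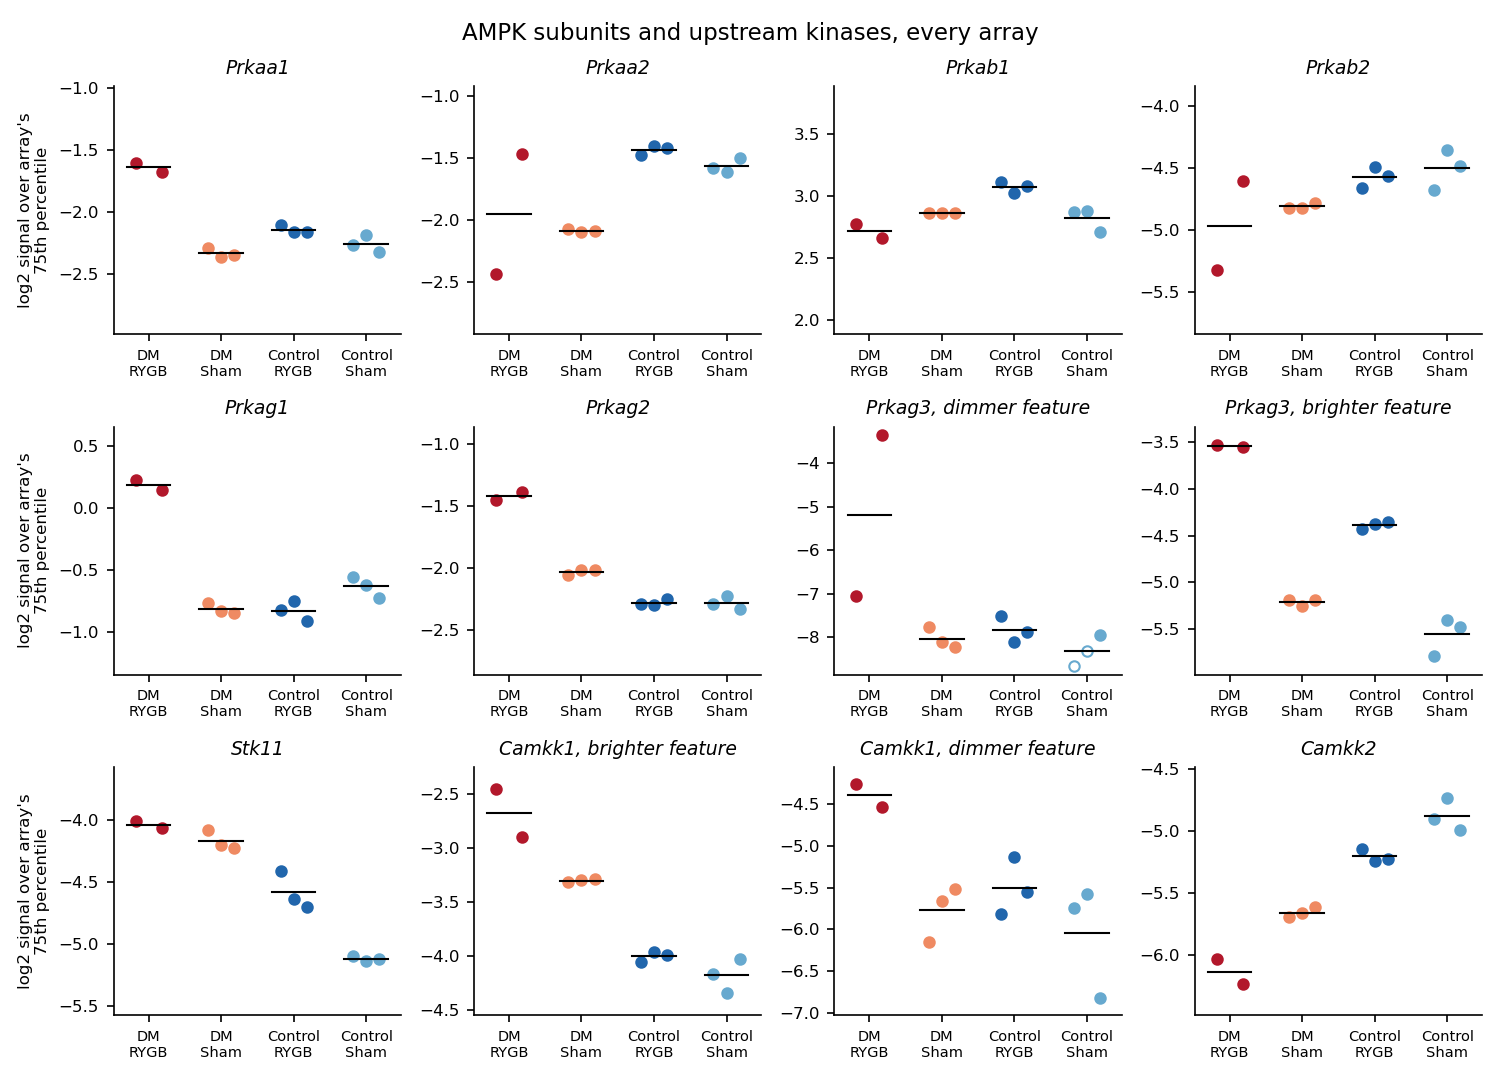
Log2 signal over the 75th percentile of the array for the 12 features, with 1 point per array, open where the feature was not well above background and black bars at the mean over arrays; each panel has its own axis range. Stk11 sits lowest and Camkk2 highest in Control+Sham, and the DM+RYGB arrays lie apart for Prkaa2, Prkab2 and the dimmer Prkag3 feature.

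With all arrays in the fit, neither catalytic subunit passed the test with all 3 scalings in any comparison. Prkaa1, which encodes alpha 1, had -1.60 and -1.67 in DM+RYGB, -2.29, -2.36 and -2.34 in DM+Sham, -2.10, -2.16 and -2.16 in Control+RYGB, and -2.26, -2.18 and -2.32 in Control+Sham. The DM+RYGB arrays were the highest, while the DM+Sham and Control+Sham arrays overlapped. The change of Prkaa1 in DM+RYGB against DM+Sham was 0.69 ± 0.11 (SE, adjusted p = 0.003), but 0.09 with median scaling (adjusted p = 0.6) and 0.36 with quantile scaling (adjusted p = 0.032). It was 0.73 (adjusted p = 0.0037) without DM+RYGB 2. Diabetes in sham rats (DM+Sham against Control+Sham) gave -0.07 ± 0.10 (95% interval -0.30 to 0.16, adjusted p = 0.66).

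Prkaa2, which encodes alpha 2, had -2.44 and -1.47 in DM+RYGB, -2.07, -2.10 and -2.09 in DM+Sham, -1.48, -1.40 and -1.42 in Control+RYGB, and -1.58, -1.61 and -1.50 in Control+Sham. All DM+Sham arrays were below all Control+Sham arrays, and the DM+RYGB arrays lay on both sides of DM+Sham. Its feature was printed as 10 spots, whose SD within an array was 0.04 to 0.06. The change in DM+Sham against Control+Sham was -0.52 ± 0.26 (SE, adjusted p = 0.21), and leaving out DM+RYGB 1 or DM+RYGB 2, which enter the shared estimate of the spread, gave the same -0.52 with an adjusted p of 0.0054. The change in DM+RYGB against DM+Sham was 0.13 ± 0.28 (adjusted p = 0.72). It was -0.48 under median and -0.24 under quantile scaling (adjusted p = 0.22 and 0.6), and -0.36 without DM+RYGB 2. Without that array Prkaa2 also differed by -1 from Control+RYGB and by -0.88 from Control+Sham. The sign of the RYGB change in diabetic rats thus turned both with the scaling and with 1 library.

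Neither scaffold subunit passed with all 3 scalings when all arrays were in the fit. Prkab1, which encodes beta 1, had 2.77 and 2.66 in DM+RYGB, 2.86 on all 3 arrays of DM+Sham, 3.11, 3.02 and 3.08 in Control+RYGB, and 2.87, 2.88 and 2.71 in Control+Sham. The Control+RYGB arrays were the highest, and their change against Control+Sham was 0.26 ± 0.10 (SE, adjusted p = 0.097), with -0.05 under median and -0.07 under quantile scaling. RYGB in diabetic rats (DM+RYGB against DM+Sham) gave -0.14 ± 0.11 (adjusted p = 0.29), with -0.75 (adjusted p = 0.0051) under median and -0.35 (adjusted p = 0.042) under quantile scaling, and -0.09 (adjusted p = 0.5) without DM+RYGB 2. Prkab1 thus had no call in which the scalings concurred.

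Prkab2, which encodes beta 2, had -5.32 and -4.60 in DM+RYGB, -4.82, -4.82 and -4.78 in DM+Sham, -4.66, -4.49 and -4.56 in Control+RYGB, and -4.67, -4.35 and -4.48 in Control+Sham. The 2 DM+RYGB arrays again lay on both sides of DM+Sham. The change in DM+Sham against Control+Sham was -0.31 ± 0.22 (SE, adjusted p = 0.37) although the arrays of these groups did not overlap. RYGB in diabetic rats gave -0.15 ± 0.24 (adjusted p = 0.61). It gave -0.75 (adjusted p = 0.049) under median and -1.11 (adjusted p = 0.024) under quantile scaling, and -0.51 without DM+RYGB 2. Without that array Prkab2 also differed by -0.73 from Control+RYGB and by -0.83 from Control+Sham. With both DM+RYGB arrays the change against Control+Sham was -0.46 ± 0.22 (adjusted p = 0.1). Under median and quantile scaling it was -1.14 (adjusted p = 0.007) and -1.42 (adjusted p = 0.0063).

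Among the subunits, only the regulatory ones passed the test with all 3 scalings when all arrays were in the fit. Prkag1, which encodes gamma 1, had 0.23 and 0.15 in DM+RYGB, -0.76, -0.83 and -0.84 in DM+Sham, -0.82, -0.75 and -0.91 in Control+RYGB, and -0.55, -0.62 and -0.72 in Control+Sham. Both DM+RYGB arrays were above every other array. Prkag1 rose in DM+RYGB against DM+Sham by 0.99 ± 0.11 (SE, 1.99-fold, adjusted p = 0.0011), with 0.39 (adjusted p = 0.046) under median and 0.83 (adjusted p = 0.0014) under quantile scaling. It was also higher in DM+RYGB than in Control+RYGB, by 1.02 ± 0.11 (adjusted p = 0.0012). RYGB in control rats (Control+RYGB against Control+Sham) gave -0.19 ± 0.10 (adjusted p = 0.17). The difference between these RYGB changes, the interaction, was 1.19 ± 0.15 (adjusted p = 0.0031). The median-scaling p of Prkag1 in DM+RYGB against DM+Sham was close to the threshold, and the call was lost when any of several arrays was left out (Control+Sham 1 or 2, DM+Sham 1, the averaged DM+Sham pair, Control+RYGB 1, the averaged Control+RYGB pair, DM+RYGB 1 or 2), with changes of 0.95 to 1.03 under 75th percentile scaling. Without DM+RYGB 2 the change was 1.03, with adjusted p = 0.0017 under 75th percentile and 0.077 under median scaling, and the calls against Control+RYGB (1.06) and for the interaction (1.23) held. The calls against Control+RYGB and for the interaction were lost without Control+RYGB 1 (1.03 and 1.20) or the averaged Control+RYGB pair (1.01 and 1.18).

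Prkag2, which encodes gamma 2, had -1.45 and -1.39 in DM+RYGB, -2.06, -2.02 and -2.02 in DM+Sham, -2.29, -2.30 and -2.25 in Control+RYGB, and -2.29, -2.23 and -2.33 in Control+Sham. The DM+RYGB arrays were above all others and the DM+Sham arrays above both control groups, which overlapped. Prkag2 was higher in DM+RYGB than in Control+RYGB by 0.86 ± 0.10 (SE, 1.82-fold, adjusted p = 0.0015), with 0.50 and 0.68 under the other scalings. RYGB in diabetic rats gave 0.62 ± 0.10 (adjusted p = 0.0035), but 0.01 (adjusted p = 0.94) under median scaling, and 0.59 (adjusted p = 0.0049) without DM+RYGB 2. In DM+Sham against Control+Sham it was 0.25 ± 0.09 (adjusted p = 0.11). The DM+RYGB against Control+RYGB call was lost without Control+Sham 1 or 2, Control+RYGB 1, the averaged Control+RYGB pair or DM+RYGB 2, with changes of 0.83 to 0.87 (0.83 without DM+RYGB 2).

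Prkag3, which encodes gamma 3, the isoform known from skeletal muscle, had 2 features that did not behave alike. Its brighter feature had -3.53 and -3.55 in DM+RYGB, -5.19, -5.25 and -5.19 in DM+Sham, -4.43, -4.38 and -4.35 in Control+RYGB, and -5.79, -5.41 and -5.48 in Control+Sham. The groups did not overlap, with DM+RYGB highest and Control+RYGB next. This feature rose in DM+RYGB against DM+Sham by 1.66 ± 0.15 (SE, 3.16-fold, adjusted p = 0.00064) and in Control+RYGB against Control+Sham by 1.17 ± 0.13 (2.24-fold, adjusted p = 0.0036). The first change was 1.67 (adjusted p = 0.0018) without DM+RYGB 2, and the call held. The interaction of 0.50 ± 0.20 did not pass (adjusted p = 0.12). The Control+RYGB call was lost without Control+Sham 1 (1.05), Control+RYGB 1 (1.20) or the averaged Control+RYGB pair (1.13). The dimmer feature had -7.04 and -3.36 in DM+RYGB, -7.75, -8.11 and -8.22 in DM+Sham, -7.50, -8.11 and -7.87 in Control+RYGB, and -8.65, -8.30 and -7.95 in Control+Sham, where it was not well above background on the first 2 arrays. Its high value on DM+RYGB 2 coincided with the muscle marker sum of 495, whereas the brighter feature had the same level on both DM+RYGB arrays. The dimmer feature's change in DM+RYGB against DM+Sham was 2.76 ± 1.04 (adjusted p = 0.06), and 0.92 (adjusted p = 0.079) without DM+RYGB 2. Of the 20 muscle markers, 5 of fast skeletal muscle (Myh1, Myh2, Myh4, Tnni2 and Tnnt3, picked out after their values were seen) differed by only -0.77 to 0.46 between the DM+RYGB arrays, while the other 15 were higher on DM+RYGB 2 by 3.03 to 11.72.

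With all arrays in the fit, the upstream kinases held all the calls of DM+Sham against Control+Sham. Stk11, which encodes LKB1, had -4.01 and -4.07 in DM+RYGB, -4.08, -4.20 and -4.23 in DM+Sham, -4.41, -4.64 and -4.70 in Control+RYGB, and -5.10, -5.14 and -5.12 in Control+Sham. The Control+Sham arrays were the lowest, and those of DM+RYGB and DM+Sham the highest. Stk11 rose in DM+Sham against Control+Sham by 0.97 ± 0.11 (SE, 1.96-fold, adjusted p = 0.0028), with 0.89 and 0.88 under the other scalings. The call held whichever array was left out, but was lost with normexp background correction and with a 2-fold threshold. RYGB in control rats gave 0.58 ± 0.11 (adjusted p = 0.017), but 0.27 under median and 0.15 under quantile scaling (adjusted p = 0.14 and 0.41). RYGB in diabetic rats gave 0.11 ± 0.12 (adjusted p = 0.48), and its sign turned to -0.49 (adjusted p = 0.019) under median and -0.67 (adjusted p = 0.0079) under quantile scaling. It was 0.14 (adjusted p = 0.41) without DM+RYGB 2.

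Camkk1, whose product CaMKK1 belongs to the same calcium-dependent kinase family, had on its brighter feature -2.45 and -2.90 in DM+RYGB, -3.32, -3.30 and -3.29 in DM+Sham, -4.06, -3.97 and -3.99 in Control+RYGB, and -4.17, -4.35 and -4.03 in Control+Sham. The DM+RYGB arrays were highest and the DM+Sham arrays next, above both overlapping control groups. Camkk1 rose in DM+Sham against Control+Sham by 0.87 ± 0.16 (SE, 1.83-fold, adjusted p = 0.015). It was higher in DM+RYGB than in Control+RYGB by 1.34 ± 0.18 (2.54-fold, adjusted p = 0.0024) and than in Control+Sham by 1.51 ± 0.16 (2.85-fold, adjusted p = 0.00072). RYGB in diabetic rats gave 0.64 ± 0.18 (adjusted p = 0.023), but 0.03 under median and 0.12 under quantile scaling. Without DM+RYGB 2 the 3 changes of DM+RYGB were 1.57 against Control+RYGB and 1.73 against Control+Sham, where both calls held, and 0.86 (adjusted p = 0.0068) against DM+Sham, which stayed uncalled. The dimmer feature had -4.25 and -4.53 in DM+RYGB and -6.15, -5.66 and -5.51 in DM+Sham. It had -5.82, -5.13 and -5.55 in Control+RYGB and -5.74, -5.57 and -6.83 in Control+Sham. Its change was 0.18 ± 0.40 (adjusted p = 0.8) in DM+Sham against Control+Sham. In DM+RYGB it was 1.19 ± 0.44 (adjusted p = 0.082) against Control+RYGB. Against Control+Sham it was 1.66 ± 0.40, with adjusted p = 0.012, 0.096 and 0.24 under the 3 scalings. This feature was called in no comparison, so the Camkk1 calls rest on the brighter feature. Without Control+Sham 1 or 2, DM+Sham 1 or the averaged DM+Sham pair, the DM+Sham call of the brighter feature was lost (0.88, 0.79, 0.89 and 0.86 with adjusted p = 0.056, 0.052, 0.065 and 0.094), and without Control+RYGB 1 the call against Control+RYGB was lost (1.30).

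Camkk2 had -6.03 and -6.23 in DM+RYGB, -5.69, -5.66 and -5.61 in DM+Sham, -5.14, -5.24 and -5.22 in Control+RYGB, and -4.90, -4.73 and -4.99 in Control+Sham. The groups did not overlap and fell in that order, with DM+RYGB the lowest. Camkk2 was lower in DM+Sham than in Control+Sham (-0.79 ± 0.12, SE, 0.578-fold, adjusted p = 0.0076) and lower in DM+RYGB than in DM+Sham (-0.46 ± 0.13, 0.726-fold, adjusted p = 0.025). It was also lower in DM+RYGB than in Control+RYGB (-0.94 ± 0.13, adjusted p = 0.003) and than in Control+Sham (-1.25 ± 0.12, adjusted p = 0.00052). RYGB in control rats gave -0.31 ± 0.12 (adjusted p = 0.094), with adjusted p = 0.026 and 0.017 under the other scalings. The DM+Sham call was lost without Control+Sham 1 or 2, DM+Sham 1 or the averaged DM+Sham pair (-0.81, -0.72, -0.76 and -0.82), and the DM+RYGB against DM+Sham call without DM+Sham 1 (-0.49, adjusted p = 0.072), that pair (-0.43, adjusted p = 0.12) or DM+RYGB 2 (-0.36, adjusted p = 0.064). Without DM+RYGB 2 the calls against Control+RYGB (-0.84) and Control+Sham (-1.15) held. With normexp background correction its changes in DM+RYGB turned positive: 1.51 against DM+Sham, 1.33 against Control+RYGB and 0.95 against Control+Sham. The offset of 50 in that correction sets a lowest possible value of -5.28 and -5.05 on the DM+RYGB arrays, above the Camkk2 levels measured there.

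**Figure D2:**
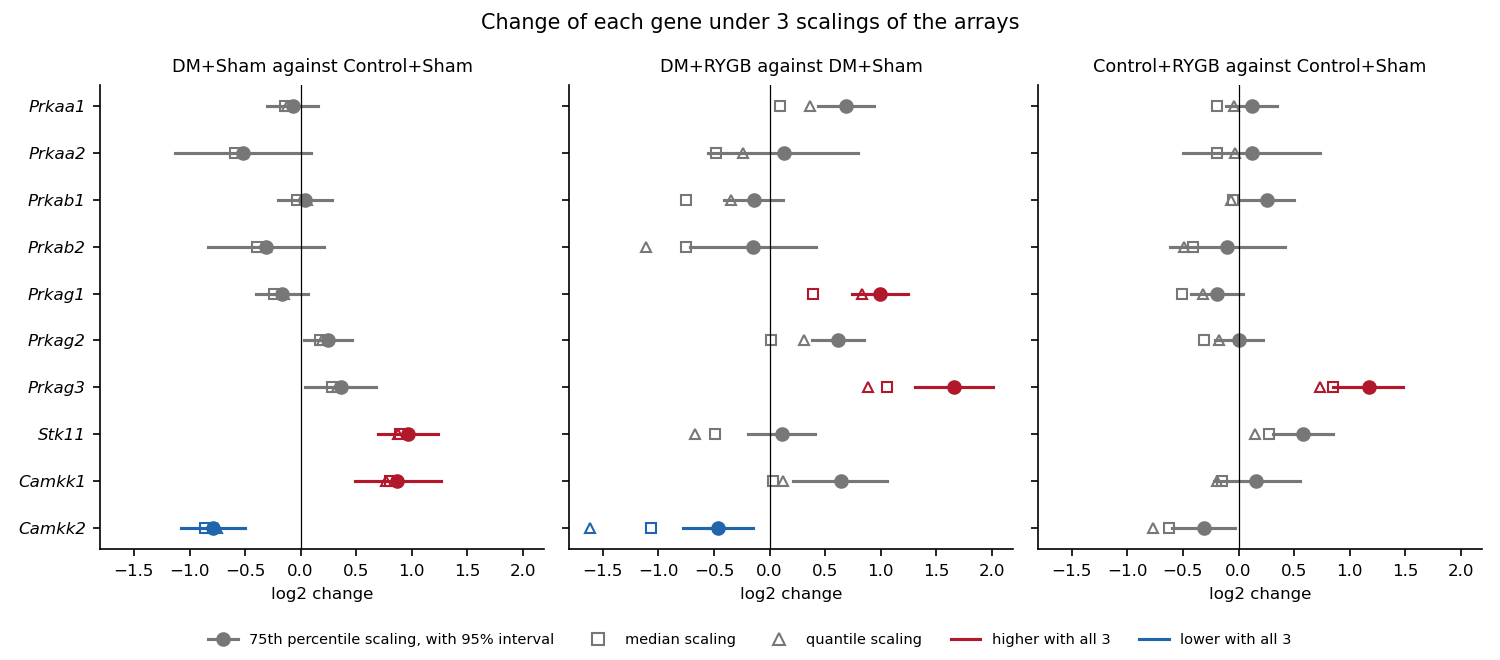
Log2 change of each gene's brightest feature in 3 comparisons: filled circles with bars are the estimate and 95% interval under 75th percentile scaling, squares and triangles the same change under median and quantile scaling, red where higher and blue where lower with all 3. Camkk2 is blue in the first 2 panels, at -0.79 and -0.46, while Stk11 lies at 0.11, -0.49 and -0.67 in the middle panel.

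Across the 10 genes and 6 comparisons, 15 of 60 results were called. In DM+Sham against Control+Sham, 2 genes were higher (Stk11 and Camkk1) where 6.32% of the 14358 tested named genes were, and 1 was lower (Camkk2) where 7.64% were. In DM+RYGB against DM+Sham, 2 were higher (Prkag1 and Prkag3; 7.07% of all) and 1 lower (Camkk2; 14.1% of all). In Control+RYGB against Control+Sham, 1 was higher (Prkag3; 4.94% of all) and 0 lower (6.67% of all), with 1 lower at limma's unadjusted p under 0.05 (Camkk2). In DM+RYGB against Control+RYGB, 3 were higher (Prkag1, Prkag2 and Camkk1; 7.62% of all) and 1 lower (Camkk2; 13% of all), and in DM+RYGB against Control+Sham, 2 were higher (Prkag3 and Camkk1; 8.69% of all) and 1 lower (Camkk2; 15.9% of all). The interaction had 1 gene higher (Prkag1; 6.54% of all) and 0 lower (10.2% of all), with 2 lower at limma's unadjusted p under 0.05 (Prkab1 and Stk11). The members' median change was -0.01, 0.37 and 0.12 in the first 3 comparisons, against 0.03, 0.38 and 0.19 over all named genes. It lay above that of all named genes in DM+RYGB against Control+RYGB (0.5 against 0.2), in DM+RYGB against Control+Sham (0.72 against 0.39) and in the interaction (0.24 against 0.15). With 10 members, a count of 1 in a direction lies near these backgrounds. The backgrounds belong to the adjusted test with 3 scalings, and none is given for the counts at unadjusted p. The comparisons share groups, DM+Sham and Control+Sham among them, so their counts are not independent.

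Partner genes were also set against each other within each array, which cancels the scaling of the array. The size of such a difference has no meaning between features, so only its change between groups is used. For Camkk1 minus Camkk2 the difference averaged 3.45 ± 0.17 in DM+RYGB, 2.36 ± 0.02 in DM+Sham, 1.17 ± 0.12 in Control+RYGB (SD, n = 2 each) and 0.69 ± 0.29 in Control+Sham (SD, n = 3). It was larger by 1.66 in DM+Sham than in Control+Sham (exact permutation p = 0.2, the smallest this design allows) and by 1.1 in DM+RYGB than in DM+Sham (exact permutation p = 0.333, again the smallest possible). The groups did not overlap in either comparison. For Prkaa1 minus Prkaa2 the change was 0.45 in DM+Sham against Control+Sham and 0.57 in DM+RYGB against DM+Sham, the second resting on 0.85 and -0.19 on the DM+RYGB arrays. For Prkag1 minus Prkag2 the changes were -0.41 and 0.38 in these comparisons, and for Prkab1 minus Prkab2 they were 0.36 and 0.01. Without DM+RYGB 2 the changes in DM+RYGB against DM+Sham were 1.22 for Camkk1 minus Camkk2, 1.09 for Prkaa1 minus Prkaa2, 0.45 for Prkag1 minus Prkag2 and 0.43 for Prkab1 minus Prkab2. Over the 20 comparisons of 4 pairs the lowest exact p was 0.2, and Benjamini-Hochberg adjusted values were 0.444 or more, two-sided. These small groups cannot reach 0.05.

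**Figure D3:**
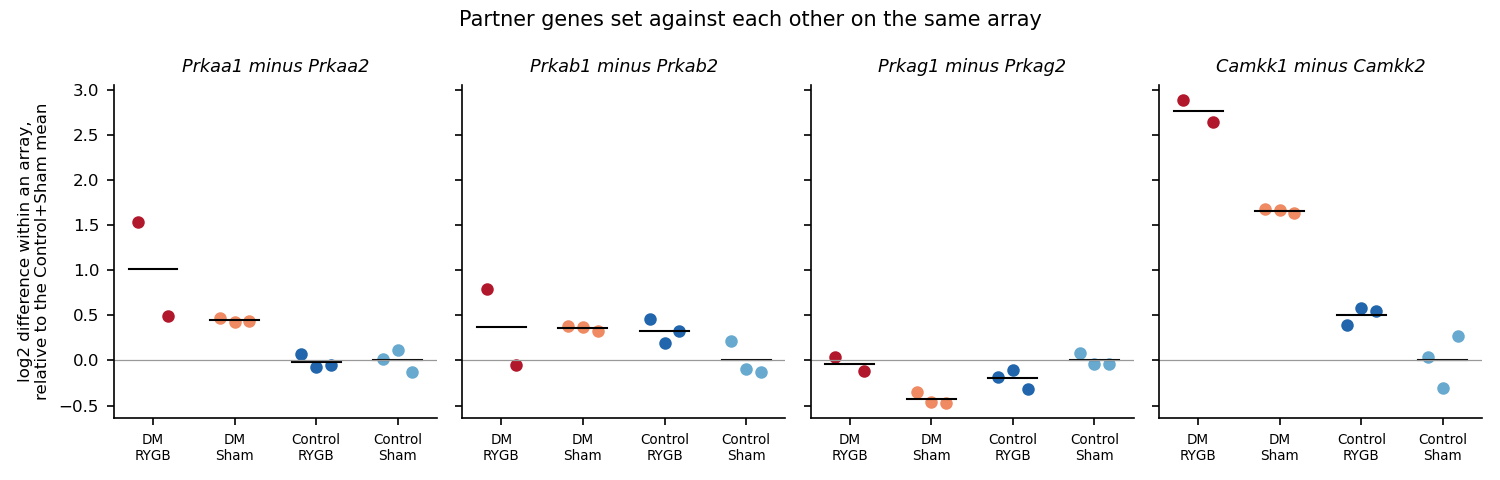
Log2 difference between partner genes on the same array, relative to the Control+Sham mean, with 1 point per array and black bars at the mean over arrays. Camkk1 minus Camkk2 stands highest in DM+RYGB and next in DM+Sham, while the 2 DM+RYGB arrays lie apart for Prkaa1 minus Prkaa2.

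Most member features differed little between the 2 DM+RYGB arrays. The difference, array 2 minus array 1, was -0.07 for Prkaa1, -0.11 for Prkab1, -0.08 for Prkag1, 0.06 for Prkag2, -0.02 for the brighter Prkag3 feature, -0.06 for Stk11, -0.45 and -0.28 for the Camkk1 features and -0.21 for Camkk2. Over 26872 features well above background on both arrays the median difference was -0.19 and the robust spread 0.43. The brighter Camkk1 feature, on which the Camkk1 calls rest, differed more in size than 62.3% of these features. Larger still were Prkaa2 at 0.97, Prkab2 at 0.73 and the dimmer Prkag3 feature at 3.69, which 92.2%, 84.4% and 99.5% of features did not reach in size. The muscle markers with the largest differences were Tnni3 at 11.72, Myh7 at 10.6 and Myh6 at 10.46, genes of the heart's contractile apparatus. The 5 markers of fast skeletal muscle that were picked out after their values were seen lay at -0.77 to 0.46. All other markers of the heart and skeletal muscle list were higher on DM+RYGB 2, by 3.03 (Tnnc1) to 11.72. Among them were Ckm (7.2), Pygm (4.13) and Acta1 (3.73). Gamma 3 is known from skeletal muscle, and alpha 2 and beta 2 are abundant in both heart and skeletal muscle. The part of RNA from heart or skeletal muscle in the members' differences was not tested.

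**Figure D4:**
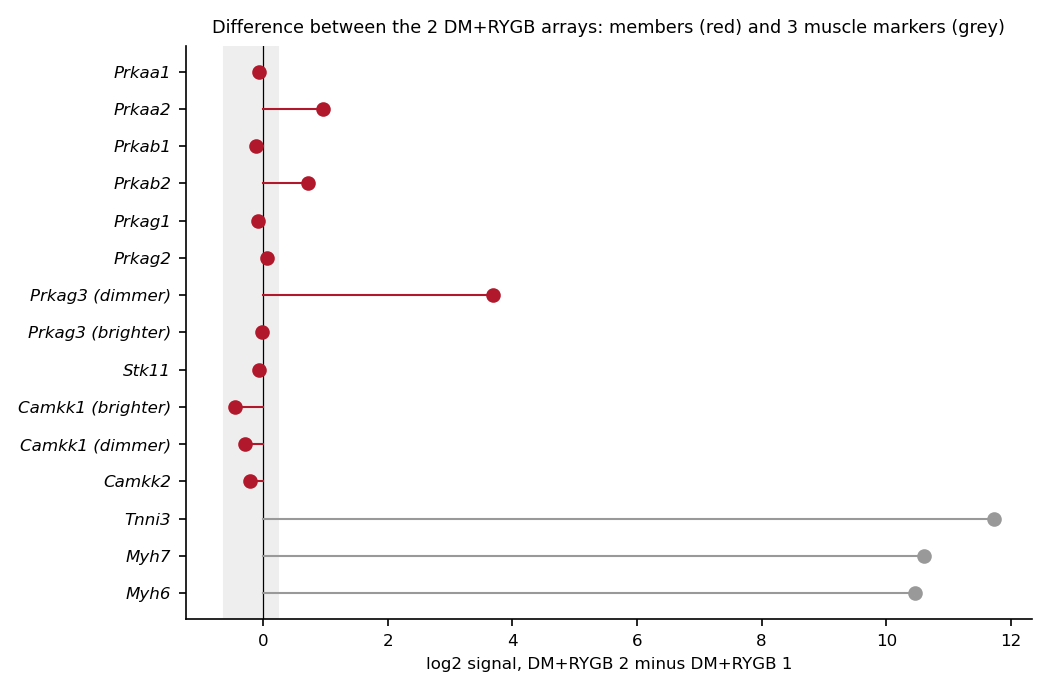
Log2 difference between the DM+RYGB arrays (array 2 minus array 1) for the 12 member features in red and 3 muscle markers in grey; the pale band is the median over all features, -0.19, plus and minus the robust spread of 0.43. Prkaa2, Prkab2 and the dimmer Prkag3 feature lie to the right of the band.

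The arrays were scanned on 5 days, and comparisons within a day used 1 array of a group or the mean of 2. For Stk11 the same-day difference of DM+Sham from Control+Sham was 1.05 and 0.92 on the 2 days that held both groups. It was 1.03 and 0.73 for the brighter Camkk1 feature and -0.96 and -0.68 for Camkk2. For DM+RYGB against DM+Sham on the one shared day it was 1.07 for Prkag1, 1.66 for the brighter Prkag3 feature and -0.41 for Camkk2. For DM+RYGB against Control+RYGB on 2 shared days it was 1.05 and 0.99 for Prkag1 and 0.84 and 0.89 for Prkag2. On the same days it was 1.61 and 1.08 for the brighter Camkk1 feature and -0.88 and -1 for Camkk2. All these kept the sign of the pooled value. The dimmer Camkk1 feature turned sign between days in DM+Sham against Control+Sham (-0.58 and 1.17). It was at 1.57 and 0.81 in DM+RYGB against Control+RYGB. No day held both groups of Control+RYGB against Control+Sham or of DM+RYGB against Control+Sham. The Control+RYGB arrays also all sat at a slide position used by no other array, so group and position cannot be told apart in any comparison with Control+RYGB: Prkag3 against Control+Sham, Prkag1, Prkag2, Camkk1 and Camkk2 in DM+RYGB against Control+RYGB, and the Prkag1 interaction. DM+RYGB 2 was likewise the only array at slide position 4, while DM+RYGB 1 sat at position 3. Array and position therefore cannot be told apart in the differences between these 2 arrays. With scan day as a block, 7 of the 15 calls remained past the threshold under all 3 scalings, and 8 were lost. In DM+Sham against Control+Sham the Stk11 call remained, while those of Camkk1 and Camkk2 were lost. In DM+RYGB against DM+Sham the Prkag3 call remained, while those of Prkag1 and Camkk2 were lost. The Prkag2 call against Control+RYGB was lost as well. Keeping the sign within a day is thus a weaker statement than keeping the call.

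Genes around AMPK were counted from 4 lists. The shares of all tested named genes to read them against were 6.32% higher and 7.64% lower in DM+Sham against Control+Sham, 7.07% and 14.1% in DM+RYGB against DM+Sham, and 4.94% and 6.67% in Control+RYGB against Control+Sham. In lists of 9 to 21 genes, a count of 1 lies near such shares. These shares belong to the adjusted test with 3 scalings. No share of all genes at unadjusted p is given, so the unadjusted counts of the 4 lists have no background to be read against. Of 17 measured LKB1 complex partners and AMPK modulators, 0 were higher (1 at limma's unadjusted p under 0.05) and 2 lower in DM+Sham against Control+Sham, namely Ppp2ca (-0.66 ± 0.14, SE, adjusted p = 0.023) and Ppp2cb (-0.51 ± 0.11, adjusted p = 0.026), catalytic subunits of protein phosphatase 2A. Bypass in diabetic rats left 2 higher and 4 lower (DM+RYGB against DM+Sham), and 2 higher and 6 lower without DM+RYGB 2, where 8.27% and 15.5% of all named genes were. Sesn3 rose by 1.52 ± 0.32 (adjusted p = 0.0087), and by 1.91 without DM+RYGB 2. Sesn2, a stress-induced AMPK activator, was at -0.86 ± 0.16 (adjusted p = 0.0052), with -2.53 and -2.96 in DM+RYGB against -1.92, -1.86 and -1.86 in DM+Sham, and at -0.64 (adjusted p = 0.0046) without DM+RYGB 2. In Control+RYGB against Control+Sham 2 were higher (Sesn3 by 1.46 among them) and 1 lower (Ppp2cb -0.38).

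Of 21 measured AMPK substrates and downstream genes, 3 were higher and 2 lower in DM+Sham against Control+Sham. Pfkfb3 and Pfkfb2 encode enzymes that set the level of a glycolysis activator, and they moved apart, with Pfkfb3 at -1.37 ± 0.11 (SE, adjusted p = 0.00078) and Pfkfb2 at 0.61 ± 0.10 (adjusted p = 0.0098). Bypass in diabetic rats left 1 higher, Txnip (2.34 ± 0.45, adjusted p = 0.0066), and 1 lower, Cpt1a (-1 ± 0.11, adjusted p = 0.001), the gate of mitochondrial fatty acid import. Both calls held without DM+RYGB 2, at 2.32 for Txnip and -0.95 for Cpt1a. In Control+RYGB against Control+Sham Txnip was higher by 2.10 and Pfkfb3 and Cpt1a were lower (-1.34 and -0.73). Acacb, which encodes the acetyl-CoA carboxylase that AMPK inhibits, was higher in DM+RYGB than in Control+RYGB by 2.13 ± 0.27 (adjusted p = 0.0022), with -2.50 and -1.70 in DM+RYGB against -4.21, -4.25 and -4.25 in Control+RYGB, and by 1.73 (adjusted p = 0.0026) without DM+RYGB 2.

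Of 9 measured AMPK-related kinases, 1 was higher in DM+Sham than in Control+Sham (Nuak2, 0.85 ± 0.19, SE, adjusted p = 0.025), 2 were higher in DM+RYGB than in DM+Sham (Mark4 1.36, Mark1 1.20), and 1 was higher in Control+RYGB than in Control+Sham (Nuak2, 1.32). None was called lower in these 3 comparisons, with 2, 0 and 1 lower at limma's unadjusted p under 0.05. Of 14 measured genes of the mTORC1 pathway, which AMPK restrains, 0 were called in DM+Sham against Control+Sham, with 1 higher and 2 lower at limma's unadjusted p under 0.05. In DM+RYGB against DM+Sham Rragd, a Rag GTPase of the nutrient branch, rose by 1.46 ± 0.15 (adjusted p = 0.00092) and Mlst8 was lower (-0.51 ± 0.17, adjusted p = 0.04). Without DM+RYGB 2 the calls held for Mark4 (1.70), Mark1 (1.51) and Rragd (1.56), while that of Mlst8 was lost (-0.39, adjusted p = 0.13). In Control+RYGB against Control+Sham Rragd rose by 1.38 ± 0.14 (adjusted p = 0.0023). The lists' median changes in DM+RYGB against DM+Sham were 0.07 for the partners and modulators, 0.18 for substrates, 0.54 for related kinases and 0.03 for mTORC1, against 0.38 for all named genes.

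The genes most like 3 members over the 9 samples were ranked by the root mean square difference of mean-centred log2 values, as a description. For Prkaa1 they were Rpain (0.056), Zfx (0.063) and Dtwd2 (0.063), where the median over all genes was 0.43. For Prkaa2 they were Rmdn1 (0.067), Rhoq (0.079) and Sucla2 (0.126), with a median of 0.57, and for Stk11 Rcor3 (0.094), Slc48a1 (0.095) and F2r (0.11), with a median of 0.55.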

How the data were processed

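Renal cortex RNA of 11 rat samples was hybridised to 1-colour arrays. The authors' spot intensity came, per the file headers, from Agilent Feature Extraction 11.0.1.1, after background subtraction and without scaling across arrays. A deposited table of log2 values has column medians of 7.07 and, column by column, followed log2 scanner signal at correlations of 0.9887 to 0.9969; how it was made is not given in the sources used here, and it served as an alternative.

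From these files, 1377 control spots of 44254 were left out, spots of 1 feature were averaged, and log2 signal minus the array's 75th percentile was modelled in R 4.3.3 by limma 3.58.1 (lmFit, eBayes; 4 groups in 1 model, 9 samples, 5 residual degrees of freedom). The tests covered 28489 of 30367 features, those with 2 or more arrays well above background, and p-values were adjusted by Benjamini and Hochberg over all of them. The brightest feature stood for a gene in counts. Of the features, 18005 carried 1 gene symbol and 12362 none here.

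DM+Sham 2 and 3, and Control+RYGB 2 and 3, were each averaged, since they differed by less than the spread of repeated spots. The fit was tested on simulated data. Named genes were all members, up to 4 called genes with the smallest p per pathway list and comparison, the 3 genes most like Prkaa1, Prkaa2 and Stk11, and the 3 muscle markers that differed most between the DM+RYGB arrays; some of these are not reported here. The members, lists and tests were chosen with earlier results of these data known. Alternatives were other scalings, background correction, filters, blocks, weights, a fold threshold and leaving out arrays; leaving out DM+RYGB 2 for the pathway lists was added after seeing the data. The number of arrays limits the precision.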

Additional observations from a re-analysis of the deposited data

Results flagged for a closer look

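Prkag1 was singled out because its RYGB change differed between diabetic and control rats in a direct test. The change was 0.99 in diabetic rats (DM+RYGB against DM+Sham) and -0.19 in control rats (Control+RYGB against Control+Sham), a difference of 1.19 ± 0.15 (SE, limma adjusted p = 0.0031), with 0.90 under median and 1.15 under quantile scaling. Both DM+RYGB arrays (0.23 and 0.15) were above all DM+Sham arrays (-0.76 to -0.84). Without Control+RYGB 1 the difference was 1.20 under 75th percentile scaling, but the call was not kept under all 3 scalings. It was 1.23 without DM+RYGB 2, and the call held. All Control+RYGB arrays sat at a slide position of their own, so group and position cannot be told apart here.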

How the results depend on the processing

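The 15 called results were all kept with the deposited table, 1 feature per gene and 11 separate arrays. For the deposited table the numbers kept, gained and reversed (15, 10 and 1) equalled those of quantile scaling alone. Its columns also share a median of 7.07, so it may not be a separate check. The fit of 11 arrays counts as separate the pairs that differed by less than repeated spots, so it adds no independent support. Each single scaling (75th percentile, median or quantile alone) keeps them by construction, since a call had to pass all 3. With normexp background correction 2 were kept, with a 2-fold threshold 2, with scan day as a block 7, with only the groups compared 7 of 14, and with array weights 11. In DM+Sham against Control+Sham 3 members were called: normexp called 0, at least 2-fold 0, the scan day block 1, and leaving out samples 1 to 4. In DM+RYGB against DM+Sham 3 were called: the 75th percentile alone called 6, the median alone 6, quantiles alone 7, the deposited values 7, normexp 1, the scan day block 1, array weights 0, only the groups compared 0, at least 2-fold 0, and leaving out samples 1 to 3. In Control+RYGB against Control+Sham 1 was called: the 75th percentile alone called 2, the median 3, quantiles 2, the deposited values 2, normexp 0, 11 separate arrays 2, the scan day block 0, array weights 3, at least 2-fold 0, and leaving out samples 0 to 1. In DM+RYGB against Control+RYGB 4 were called: the 75th percentile alone called 8, normexp 0, only the groups compared 0, at least 2-fold 0, and leaving out samples 1 to 5. In the comparison of DM+RYGB with Control+Sham 3 were called: the 75th percentile alone called 7, the median 7, quantiles 6, the deposited values 7, normexp 1, the scan day block 1, and leaving out samples 3 to 5. For the interaction 1 was called: each scaling alone and the deposited values called 3, normexp 0, 11 separate arrays 3, at least 2-fold 0, and leaving out samples 0 to 2. The cause was not tested, except that requiring 3 scalings or 2-fold lowers a count by construction. The 75th percentile alone passed 15038 of the 28489 tested features in DM+RYGB against DM+Sham and 17328 in DM+RYGB against Control+Sham. It passed 8934 for DM+RYGB against Control+RYGB, 7650 for Control+RYGB against Control+Sham, 4920 for DM+Sham against Control+Sham and 6392 for the interaction. The members' counts are to be read against these. Such numbers are not given here for other settings or for unadjusted p.

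The replicate numbers share only a number: correlations of same-numbered deviations were -0.38 to 0.45. With the replicate block 2 members were called in Control+RYGB against Control+Sham and 2 in the interaction, and all 15 calls were kept.

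Stk11 in DM+RYGB against DM+Sham turned to -0.49 (median), -0.67 (quantile) and -0.63 (deposited values); the cause was not tested. Camkk2 turned with normexp to 1.51, 1.33 and 0.95 in the 3 comparisons of DM+RYGB, and Camkk1 minus Camkk2 to -0.42 in DM+RYGB against DM+Sham. The Camkk2 signal lay under the offset of 50 on both DM+RYGB arrays (24.8 and 21.4) and on DM+Sham 1 (44.6), and at 57.9 to 140 on the other arrays. Prkaa2 was -0.36 without DM+RYGB 2 and 0.61 without DM+RYGB 1 against DM+Sham, and -0.48 and 0.49 in the interaction. Dim features such as Camkk2 and the dimmer Prkag3 feature are limited by signal over background. In Control+Sham, Stk11 (59.4, 43.8 and 128) and the brighter Prkag3 feature (36.6, 36.2 and 99.9) were dim as well. The Stk11 change in DM+Sham against Control+Sham was 0.49 to 1.04 across the alternatives, and its call was lost with normexp and with the 2-fold threshold.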

Other observations

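Other cell type markers were summed as linear mRNA levels over the 75th percentile; such a sum is not a number of cells, and 1 gene can carry it. Endothelial markers summed to 24.3 to 24.8 in DM+RYGB, 18.9 to 19.7 in DM+Sham, 17.8 to 18.8 in Control+RYGB and 13.3 to 14.2 in Control+Sham. Collecting duct markers summed to 82 to 119, 64.2 to 85.4, 56.1 to 59.6 and 43.6 to 60.5 in the same groups, and markers of the distal convoluted tubule and thick ascending limb to 84 to 160, 38 to 56.9, 58.4 to 95.6 and 29.4 to 44.8. Urothelial markers summed to 0.423 to 0.548, 0.221 to 0.229, 0.191 to 0.242 and 1.93 to 2.11, and liver markers to 2.68 to 5.27, 2.15 to 2.19, 12.5 to 14.6 and 2.61 to 3.32. Leukocyte markers summed to 1.39 in DM+RYGB, 1.48 to 1.49 in DM+Sham, 1.84 to 1.90 in Control+RYGB and 1.88 to 1.96 in Control+Sham, and red blood cell markers to 10.5 to 40, 16 to 23.8, 24.9 to 33.5 and 9.24 to 11.3. Slc4a1 belongs to both the collecting duct and the red blood cell list. For adipocytes the single genes disagreed between the DM+RYGB arrays, with Adipoq at 2.08 and 1.33 and Fabp4 at -5.17 and 1.05 (log2) on arrays 1 and 2. Their part in the members' values was not tested.

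Nos3, the endothelial nitric oxide synthase that AMPK phosphorylates, was higher in DM+RYGB than in Control+RYGB by 1.47 ± 0.20 (SE, limma adjusted p = 0.0024), with -3.39 and -2.81 in DM+RYGB against -4.55, -4.60 and -4.61 in Control+RYGB, and by 1.18 without DM+RYGB 2. Lamtor1, which anchors a complex on lysosomes where LKB1 can reach AMPK, was lower in DM+RYGB than in DM+Sham (-0.61 ± 0.12, adjusted p = 0.0068) and its interaction was -0.78 ± 0.16 (adjusted p = 0.017); without DM+RYGB 2 these were -0.68 and -0.85, and both calls held.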
